A study of Mus musculus with 9 samples.

Results

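The translation initiation and elongation factors were examined in cultured mouse tumor cells with and without disruption of Vcam1, which encodes a cell surface adhesion molecule. They were the gene symbols that begin with Eif1 to Eif6, Eef1 or Eef2, without the eIF2α kinases and the symbols ending in -ps, and 68 of the 55276 symbols in the count table met that rule. The cells were PPTR cells, a line of intrahepatic cholangiocarcinoma (bile duct cancer of the liver) from a mouse model carrying Prom1CreERT2, Ptenflx/flx, Tp53flx/flx and Rosa-ZsGreen, in which Cre is driven from the Prom1 gene. All groups carried these alleles, whose recombination gene counts do not show, and all were grown in DMEM with serum. The groups were the control cells (labelled WT and here called Vcam1ctrl) and the single-cell clones Vcam1KO1 and Vcam1KO2, each made by CRISPR/Cas9 and each standing for 1 clone, with 3 RNA-seq libraries per group. The libraries came from different passages of the cells. Nothing else was stated about what separates them, so p-values measured the spread between these libraries, and what is particular to a clone and what follows from Vcam1 disruption cannot be told apart with 1 clone at a time.

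Initiation factors bring the initiator tRNA, the small ribosomal subunit and the capped mRNA together, find the start codon and let the large subunit join. eIF2 carries the initiator tRNA and is recharged by eIF2B, eIF3 binds the small subunit, and the eIF4 factors bind the cap and unwind the mRNA. Elongation factors then deliver each aminoacyl-tRNA (eEF1) and move the ribosome along by a codon (eEF2). The cap-binding step is held back by the 4E-BP proteins, which the kinase mTORC1 switches off, and eIF2 is switched off by kinases that respond to stress.

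Library totals ranged from 53415907 to 125223073 estimated counts in Vcam1ctrl, from 63662354 to 93961714 in Vcam1KO1 and from 59343234 to 73766383 in Vcam1KO2. Vcam1 RNA was at 248, 221 and 329 CPM (counts scaled to library size, per 1e6 counts) in Vcam1ctrl, at 98.8, 92.4 and 128 CPM in Vcam1KO1 and at 119, 99.4 and 83.0 CPM in Vcam1KO2, below the control in all clone libraries. The study reported that both clones had lost Vcam1 expression, by quantitative RT-PCR and by flow cytometry. The RNA counts given here do not measure the protein. Replicate 3 of Vcam1KO1 and replicate 3 of Vcam1KO2 stood apart from the other libraries of their clone, with chi-square values per degree of freedom of 113 to 275 against 36.0 and 35.8 for the other pair of each clone. The control pairs gave 84.4 to 169, the higher values in the pairs with replicate 2. The clones also differed from the control in cell type markers: of 8 tested biliary or epithelial markers 6 were lower in each clone, with Krt19 at 2129 to 2406 CPM in Vcam1ctrl and at most 0.226 CPM in the clones, while Spp1 was higher. The summed level of 8 fibroblast markers was 427 to 828 CPM in Vcam1ctrl, 12485 to 15950 CPM in Vcam1KO1 and 6751 to 9094 CPM in Vcam1KO2. Of the 7 tested, 5 were higher and 1, Dcn, lower in Vcam1KO1 (-4.11 on the log2 scale), and 6 were higher in Vcam1KO2. The 4 hepatocyte markers together gave 246 to 427 CPM in Vcam1ctrl and at most 3.02 CPM in the clones, the 4 endothelial markers at most 2.02 CPM and the 4 haematopoietic markers at most 20.7 CPM in any library, and Prom1 was under 1 CPM in all 9. Fewer cells of a type and less RNA per cell cannot be told apart in such libraries, and the part of these differences in the results on translation factors was not tested.

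The translation factors took a smaller share of all counts in both clones. They made up 3.41% ± 0.154 (SD, n = 3) of the counts in Vcam1ctrl, 1.95% ± 0.249 in Vcam1KO1 and 2.51% ± 0.0343 in Vcam1KO2, and no clone library reached the lowest control library. Of the 68 factors, 63 passed the filter on low counts and were tested. In Vcam1KO1 37 of the 63 were lower and 4 higher than in Vcam1ctrl (edgeR's quasi-likelihood test, adjusted p under 0.05), beside 30.0% lower and 29.9% higher among all 17672 genes tested. In Vcam1KO2 23 were lower and 9 higher, beside 26.1% lower and 25.3% higher among all genes. With both clones pooled (6 libraries against 3), 27 were lower and 4 higher, beside 21.2% and 21.7% of all genes. Without replicate 1 or replicate 2 of Vcam1ctrl the pooled count of lower factors fell to 16, and the number of higher factors in Vcam1KO2 moved between 3 and 11 as single libraries were left out.

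The median log2 fold change of the tested factors was -0.57 in Vcam1KO1, -0.36 in Vcam1KO2 and -0.48 with the clones pooled, against medians of 0.02, 0.00 and 0.07 over all tested genes. In 28 of the 63 factors all 6 clone libraries lay below all 3 control libraries, and in 3 they lay above, beside 23.0% and 21.2% of all tested genes. The clones also differed from each other. Set directly against Vcam1KO2, Vcam1KO1 had 26 factors lower and 1 higher, beside 18.5% lower and 20.2% higher among all genes, with a median of -0.35 against 0.04 over all genes. Both comparisons with the control used the same 3 control libraries, so their counts are not independent.

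**Figure D1:**
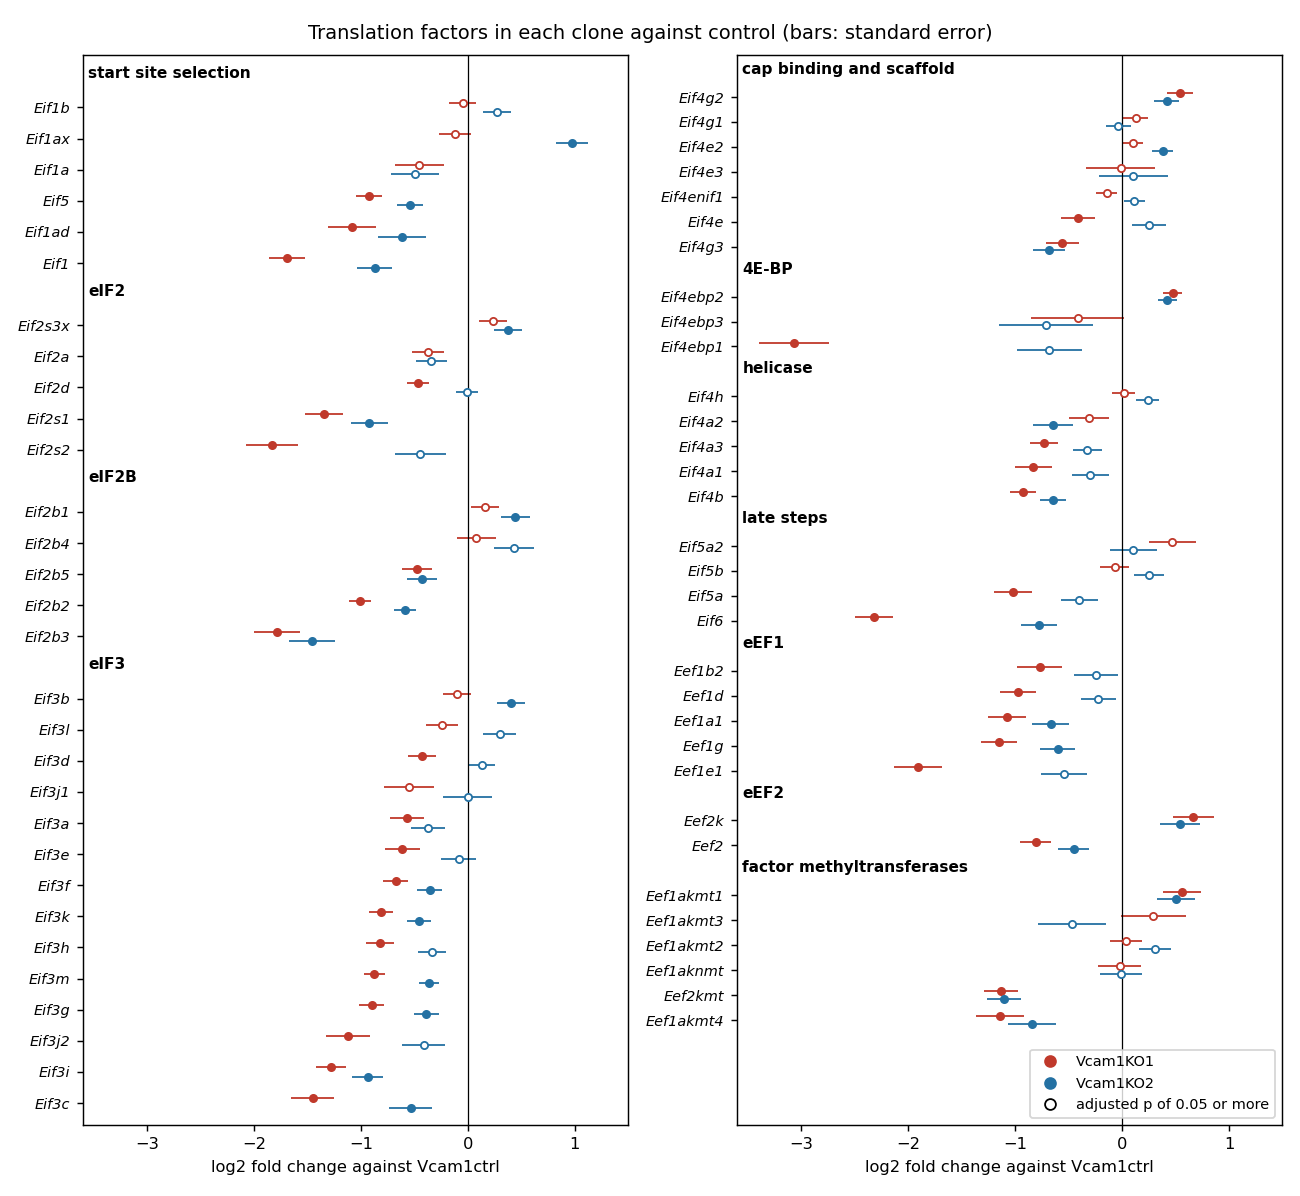
Log2 fold change against Vcam1ctrl of 62 tested translation factors, grouped by role, for Vcam1KO1 (red) and Vcam1KO2 (blue), with standard errors as bars and open symbols for an adjusted p of 0.05 or more. Most of the eIF3 and eEF1 genes lie left of 0 and further left in Vcam1KO1, whereas Eif4g2, Eif4ebp2, Eef2k and Eef1akmt1 lie right of 0 in both clones; Eif4a3l1, which had at most 0.997 CPM, is not drawn.

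The mRNAs of several translation factors begin with a C followed by a run of pyrimidines, the feature through which mTORC1 controls how well they are translated. The window around the RefSeq transcription start (GRCm38.p6) was searched on the transcribed strand for a C followed by at least 6 C or T, within 15 bases on each side. Of 51 factors with a RefSeq start, 12 (23.5%) held such a run, compared with 16.9% of 20933 genes in the count table. On the opposite strand the shares were 13.7% and 18.2%. The windows below show 3 factors with a run, in capitals, and the elongation factor Eef2 and the initiation factor Eif1, in which the search found none. Each covers 40 bases before the start and 20 from it, so that the start is base 41.
Eef1a1, chr9:78481705-78481764, minus strand: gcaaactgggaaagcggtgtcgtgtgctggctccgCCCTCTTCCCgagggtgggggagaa
Eif3f, chr7:108934375-108934434, plus strand: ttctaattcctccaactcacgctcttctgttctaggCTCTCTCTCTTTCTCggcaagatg
Eif2s3x, chrX:94212632-94212691, minus strand: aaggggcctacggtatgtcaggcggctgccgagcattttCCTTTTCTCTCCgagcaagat
Eef2, chr10:81176591-81176650, plus strand: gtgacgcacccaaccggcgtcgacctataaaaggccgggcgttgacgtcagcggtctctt
Eif1, chr11:100319909-100319968, plus strand: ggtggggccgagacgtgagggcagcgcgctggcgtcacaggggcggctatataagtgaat

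The runs are 10 bases long in Eef1a1, 15 in Eif3f and 12 in Eif2s3x. Of the 9 tested factors with a run, 4 were lower with the clones pooled (median log2 fold change -0.04), and of the 39 tested factors with a start but no run, 17 were lower and 2 higher (median -0.48). The medians with and without a run were -0.41 and -0.57 in Vcam1KO1, where 5 of 9 and 23 of 39 were lower, and 0.12 and -0.34 in Vcam1KO2, where 4 of 9 and 15 of 39 were lower. Eef1a1 and Eif3f, which have a run, were lower in both clones, and so were Eef2 and Eif1, in which the search found none. Eif2s3x, which has one, was not lower. The runs shown begin before the listed start, and the Eef2 window ends in pyrimidines that lie partly past the bases searched. Eif4e has 2 listed starts and holds a run at only 1 of them, yet was counted with the factors that have a run. These labels thus depend on the listed start and the width of the search. The medians above therefore do not compare mRNAs that begin with such a run with mRNAs that do not. Whether a run bears on the RNA level was not tested. The start used in these cells was not measured, and a run in the annotated window is a match of letters only.

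Counts in the role groups are to be read beside all tested genes. Those had 30.0% lower and 29.9% higher in Vcam1KO1, and 26.1% lower and 25.3% higher in Vcam1KO2. The eEF1 genes, which deliver aminoacyl-tRNA, were lower in Vcam1KO1 in all 5 that could be tested. Eef1a1 (chromosome 9, 78478449 to 78489151, GRCm38), the GTPase that carries the aminoacyl-tRNA, had the highest level per kilobase of transcript of all factors, at 6662 CPM per kb in Vcam1ctrl. It stood at 11249, 12062 and 12543 CPM in Vcam1ctrl, at 6614, 6001 and 4394 CPM in Vcam1KO1 and at 7489, 7959 and 7146 CPM in Vcam1KO2. All clone libraries were below all control libraries. The log2 fold change was -1.08 ± 0.18 (SE) in Vcam1KO1 (adjusted p = 0.00057) and -0.67 ± 0.17 in Vcam1KO2 (adjusted p = 0.010), and the clones did not differ by the test (-0.41, adjusted p = 0.091). Eef1a1 alone took 1.13 to 1.22% of all counts in Vcam1ctrl, 0.432 to 0.683% in Vcam1KO1 and 0.735 to 0.763% in Vcam1KO2.

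Eef1g, a subunit of the complex that recharges eEF1A with GTP, was at 2246, 2419 and 2154 CPM in Vcam1ctrl, at 1152, 1137 and 782 CPM in Vcam1KO1 and at 1389, 1569 and 1540 CPM in Vcam1KO2. It fell in both clones and further in Vcam1KO1, by -1.15 against -0.60 on the log2 scale, and the difference of -0.55 between the clones passed the test (adjusted p = 0.026), although not without replicate 2 or 3 of Vcam1KO2 (adjusted p up to 0.084); the fall in Vcam1KO2 was lost without its replicate 1 (adjusted p = 0.052). Eef1b2, which holds the exchange activity, was at 759, 780 and 733 CPM in Vcam1ctrl, at 542, 500 and 289 CPM in Vcam1KO1 and at 601, 649 and 672 CPM in Vcam1KO2. It was lower in Vcam1KO1 (-0.77, adjusted p = 0.0096), while in Vcam1KO2 the change was -0.24 (adjusted p = 0.36). Eef1d, the other exchange subunit, had 373, 401 and 335 CPM in Vcam1ctrl, 199, 216 and 150 CPM in Vcam1KO1 and 271, 315 and 366 CPM in Vcam1KO2. It was lower in Vcam1KO1 (-0.97, adjusted p = 0.00077), and it was lower there than in Vcam1KO2 by 0.75 on the log2 scale.

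Eef1e1, which despite its symbol is known as a part of the multi-tRNA synthetase complex, differed most between the clones within this group. It was at 40.7, 56 and 34.5 CPM in Vcam1ctrl, at 12.6, 13.8 and 8.54 CPM in Vcam1KO1 and at 27.7, 31.7 and 30.9 CPM in Vcam1KO2. The 3 groups did not overlap. The log2 fold change was -1.91 ± 0.22 in Vcam1KO1 (adjusted p = 6.8e-05) and -0.54 ± 0.22 in Vcam1KO2 (adjusted p = 0.061), and the difference of -1.37 between the clones passed the test (adjusted p = 0.0013).

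Eef2, the translocase, and Eef2k, the kinase that inhibits it, moved in opposite directions. Eef2 (chromosome 10, 81176631 to 81182498) was at 4855, 4375 and 5335 CPM in Vcam1ctrl, at 2757, 2597 and 2971 CPM in Vcam1KO1 and at 3719, 3847 and 3084 CPM in Vcam1KO2. Its log2 fold change was -0.81 ± 0.15 in Vcam1KO1 (adjusted p = 0.0011) and -0.45 ± 0.15 in Vcam1KO2 (adjusted p = 0.027). Eef2k was at 26.4, 26.8 and 25.3 CPM in Vcam1ctrl, at 37.1, 36.6 and 51.0 CPM in Vcam1KO1 and at 42.8, 43.5 and 28.0 CPM in Vcam1KO2, so that every clone library lay above the control, replicate 3 of Vcam1KO2 only narrowly. The change was 0.67 ± 0.19 in Vcam1KO1 (adjusted p = 0.013) and 0.54 ± 0.19 in Vcam1KO2 (adjusted p = 0.038). The call for Eef2 in Vcam1KO2 was lost without Vcam1ctrl replicate 1 or 3 or Vcam1KO2 replicate 3 (adjusted p up to 0.088), and that for Eef2k under 8 of 17 alternatives: without any single Vcam1ctrl library, without Vcam1KO2 replicate 1 or 2, with limma-voom, which the study used, with upper-quartile factors and with a filter at a mean of 1 CPM (adjusted p up to 0.13). With the clones pooled, Eef2 had -0.62 (adjusted p = 0.016) and Eef2k 0.61 (adjusted p = 0.021), and leaving out Vcam1ctrl replicate 1 or 3 for Eef2, or any Vcam1ctrl library for Eef2k, ended those calls (adjusted p up to 0.064 and 0.073).

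The 6 methyltransferases that modify the elongation factors were split, with 1 higher and 2 lower in each clone. Their share of lower genes was close to the 30.0% in Vcam1KO1 and 26.1% in Vcam1KO2 of all tested genes. Eef2kmt, which methylates eEF2, had 27.2, 30.2 and 31.9 CPM in Vcam1ctrl, 12.7, 12.8 and 15.2 CPM in Vcam1KO1 and 13.9, 16.2 and 11.5 CPM in Vcam1KO2. It fell by nearly the same amount in both clones, with -1.13 ± 0.16 in Vcam1KO1 and -1.10 ± 0.16 in Vcam1KO2 (adjusted p = 0.00020 and 0.00029). Eef1akmt4, which methylates eEF1A, had 15.7, 23.0 and 14.4 CPM in Vcam1ctrl, 8.43, 9.54 and 6.03 CPM in Vcam1KO1 and 9.53, 10.7 and 9.35 CPM in Vcam1KO2, and fell by -1.14 and -0.84. It shares its strand with the overlapping gene Gm49333, so its counts are uncertain. Eef1akmt1, another eEF1A lysine methyltransferase, was the member that was higher, by 0.56 in Vcam1KO1 and 0.51 in Vcam1KO2. Eef1akmt2, Eef1akmt3 and Eef1aknmt did not pass the test in either clone.

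**Figure D2:**
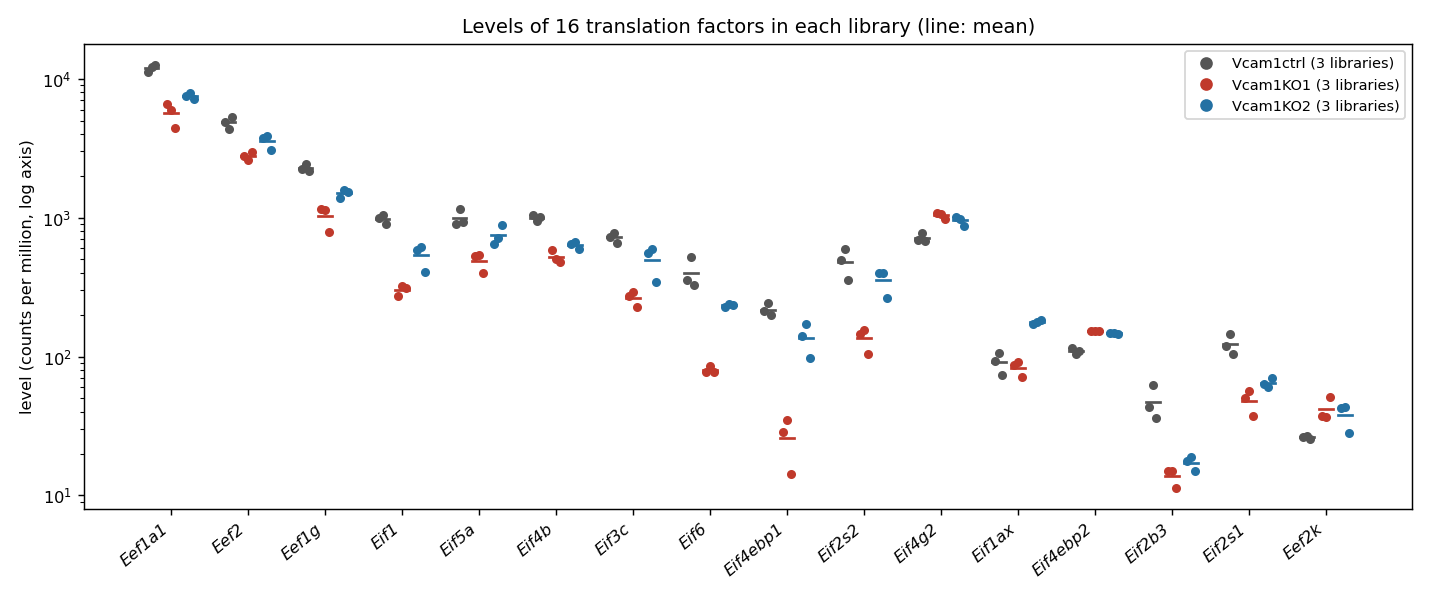
Levels of 16 translation factors in each library, in CPM on a log axis, with 3 points per group and the group mean as a line. Eef1a1, Eif1, Eif6, Eif2b3 and Eif2s1 have all clone points below the control points, Eif4ebp1 drops to between 14.2 and 35.2 CPM in Vcam1KO1, and Eif1ax is raised in Vcam1KO2.

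Among the factors that select the start codon, Eif1 and Eif5 were lower in both clones. Eif1 (chromosome 11, 100319885 to 100322096), which keeps the scanning ribosome from accepting wrong start codons, was at 994, 1042 and 897 CPM in Vcam1ctrl, at 275, 324 and 311 CPM in Vcam1KO1 and at 584, 611 and 409 CPM in Vcam1KO2. The 3 groups did not overlap. The log2 fold change was -1.69 ± 0.17 in Vcam1KO1 (adjusted p = 2.4e-05) and -0.87 ± 0.16 in Vcam1KO2 (adjusted p = 0.0017), with -0.82 between the clones (adjusted p = 0.0042). Eif5, which makes eIF2 hydrolyse its GTP at the start codon, fell by -0.92 in Vcam1KO1 and -0.54 in Vcam1KO2.

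Eif1ax, which encodes eIF1A, the partner of eIF1 on the small subunit, behaved differently from Eif1. It was at 92.2, 106 and 73.2 CPM in Vcam1ctrl and at 87.3, 92.0 and 70.7 CPM in Vcam1KO1, which overlapped, and at 172, 176 and 184 CPM in Vcam1KO2. It was higher in Vcam1KO2 by 0.97 ± 0.15 (adjusted p = 0.00055), with -0.12 in Vcam1KO1 (adjusted p = 0.51) and a difference of -1.09 between the clones (adjusted p = 0.00066). Eif1ad, an eIF1A-like gene, fell in both clones by -1.08 and -0.61, and Eif1a and Eif1b did not pass the test in either clone.

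The subunits of eIF2 did not move together. Eif2s1 (chromosome 12, 78861819 to 78887010) encodes the α subunit, on which the stress kinases act, and was at 119, 145 and 104 CPM in Vcam1ctrl, at 50.2, 56.9 and 37.3 CPM in Vcam1KO1 and at 63.4, 60.3 and 69.9 CPM in Vcam1KO2. It fell in both clones, by -1.35 ± 0.17 (adjusted p = 0.00013) and -0.93 ± 0.17 (adjusted p = 0.0016). Eif2s2, the β subunit, was at 492, 598 and 354 CPM in Vcam1ctrl, at 146, 155 and 104 CPM in Vcam1KO1 and at 399, 397 and 264 CPM in Vcam1KO2. It fell in Vcam1KO1 by -1.83 ± 0.25 (adjusted p = 0.00017), while Vcam1KO2 overlapped with the control (-0.45, adjusted p = 0.15), and the clones differed by -1.39 (adjusted p = 0.0022).

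Eif2s3x, the X-linked γ subunit that binds GTP and the tRNA, was at 212, 253 and 211 CPM in Vcam1ctrl, at 287, 284 and 223 CPM in Vcam1KO1 and at 283, 290 and 305 CPM in Vcam1KO2. It was not lower in either clone. It passed the test as higher in Vcam1KO2 (0.37 ± 0.13, adjusted p = 0.038) but not in Vcam1KO1 (0.23 ± 0.13, adjusted p = 0.16). The call in Vcam1KO2 was lost under 8 of 17 alternatives, among them leaving out Vcam1ctrl replicate 1 or 3 or any Vcam1KO2 library (adjusted p up to 0.13). Eif2s3y, its Y-linked copy, was at 0 CPM in 8 libraries and at 0.0749 CPM in Vcam1KO1 replicate 1. Eif2a and Eif2d, which can deliver initiator tRNA without eIF2, gave -0.37 and -0.47 in Vcam1KO1 and -0.34 and -0.01 in Vcam1KO2, of which the -0.47 of Eif2d passed the test.

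Of the 5 subunits of eIF2B, the exchange factor that recharges eIF2, the catalytic pair and 1 of the regulatory subunits were lower in both clones. Eif2b3 (chromosome 4, 117019402 to 117087306), the γ subunit of the catalytic part, had 42.9, 62.6 and 36.2 CPM in Vcam1ctrl, 14.9, 14.9 and 11.4 CPM in Vcam1KO1 and 17.6, 18.9 and 15 CPM in Vcam1KO2. No clone library came near the control range. The fall was -1.78 ± 0.21 in Vcam1KO1 (adjusted p = 8.4e-05) and -1.46 ± 0.21 in Vcam1KO2 (adjusted p = 0.00035), and in the pooled comparison it was the factor with the largest change among those with a mean of at least 5 CPM, at -1.61. Eif2b5, the ε subunit that holds the catalytic domain, had 104, 127 and 105 CPM in Vcam1ctrl, 89.0, 86.3 and 65.9 CPM in Vcam1KO1 and 76.1, 84.9 and 87.6 CPM in Vcam1KO2. Its fall was smaller, -0.47 in Vcam1KO1 (adjusted p = 0.015) and -0.43 in Vcam1KO2 (adjusted p = 0.027), and the latter was lost without Vcam1ctrl replicate 2 or Vcam1KO2 replicate 1 or 2 (adjusted p up to 0.098). Eif2b2, a regulatory subunit, fell by -1.01 and -0.58, whereas the regulatory subunits Eif2b1 and Eif2b4 gave 0.16 and 0.08 in Vcam1KO1 and 0.44 and 0.43 in Vcam1KO2, of which the 0.44 of Eif2b1 passed the test (adjusted p = 0.019).

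The eIF3 complex, the large assembly that holds the small subunit ready for the mRNA, was lower in 11 of its 14 genes in Vcam1KO1 and in 6 in Vcam1KO2, where Eif3b was higher. Set directly against Vcam1KO2, Vcam1KO1 was lower in 10, beside 18.5% of all tested genes. The median log2 fold change was -0.74 in Vcam1KO1, -0.36 in Vcam1KO2 and -0.51 between the clones. Without replicate 3 of Vcam1KO1, 12 genes were lower in Vcam1KO1, and without replicate 2 of Vcam1ctrl or replicate 3 of Vcam1KO2 4 were lower in Vcam1KO2.

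The largest falls in eIF3 in Vcam1KO1 were those of Eif3c and Eif3i. Eif3c (chromosome 7, 126546455 to 126566411), a core subunit, had 728, 781 and 659 CPM in Vcam1ctrl, 273, 292 and 227 CPM in Vcam1KO1 and 558, 593 and 345 CPM in Vcam1KO2. It fell by -1.45 ± 0.20 in Vcam1KO1 (adjusted p = 0.00022). In Vcam1KO2 it fell by -0.54 ± 0.20 (adjusted p = 0.049), a call that ended without any single Vcam1ctrl library, Vcam1KO1 replicate 1 or 2, or Vcam1KO2 replicate 1 or 3 (adjusted p up to 0.10). The clones differed by -0.92 (adjusted p = 0.0065).

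Eif3i, a subunit of the b-g-i module at the edge of the complex, had 169, 191 and 166 CPM in Vcam1ctrl, 80.3, 77.8 and 58.6 CPM in Vcam1KO1 and 82.1, 91.1 and 102 CPM in Vcam1KO2. Both clones were well below the control, by -1.28 ± 0.14 (adjusted p = 5.3e-05) and -0.94 ± 0.14 (adjusted p = 0.00046), and did not differ from each other by the test (-0.34, adjusted p = 0.085). The other members of the same module moved differently: Eif3g fell by -0.90 and -0.39, while Eif3b gave -0.10 in Vcam1KO1 (adjusted p = 0.54) and 0.40 in Vcam1KO2 (adjusted p = 0.028).

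Eif3a, the largest core subunit, had 794, 804 and 568 CPM in Vcam1ctrl, 493, 530 and 439 CPM in Vcam1KO1 and 608, 557 and 507 CPM in Vcam1KO2, and replicate 3 of Vcam1ctrl lay within the range of the clones. It fell in Vcam1KO1 (-0.57, adjusted p = 0.012) and gave -0.37 in Vcam1KO2 (adjusted p = 0.076). Eif3e had 317, 342 and 261 CPM in Vcam1ctrl, 228, 214 and 159 CPM in Vcam1KO1 and 315, 288 and 263 CPM in Vcam1KO2. It fell in Vcam1KO1 (-0.61, adjusted p = 0.0091) and gave -0.09 in Vcam1KO2 (adjusted p = 0.69). The core subunits Eif3f, Eif3k and Eif3m fell in both clones, by -0.68 to -0.88 in Vcam1KO1 and -0.36 to -0.46 in Vcam1KO2. Eif3l, which pairs with Eif3k in the complex, did not pass the test in either clone (-0.25 and 0.30), nor did the low Eif3j1, whose reads may be split with its near copy Eif3j2.

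**Figure D3:**
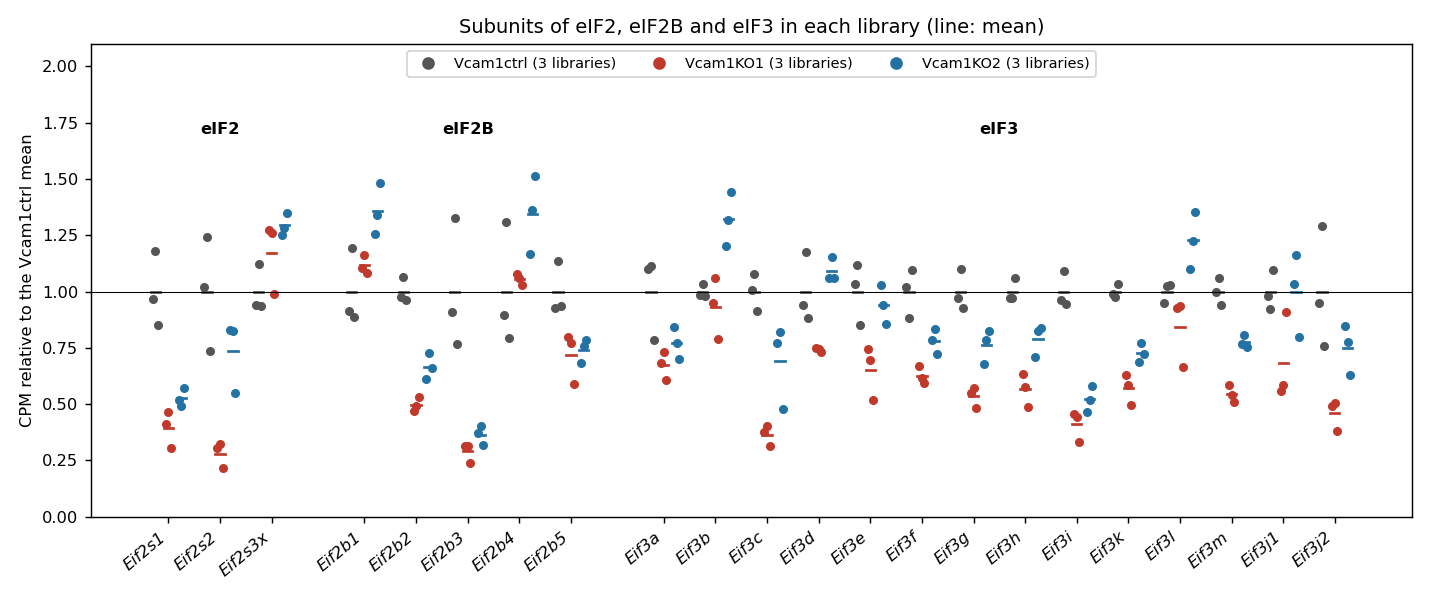
Level of each subunit gene of eIF2, eIF2B and eIF3 in each library, as CPM relative to the Vcam1ctrl mean, with 3 points per group and the group mean as a line. Within each complex some subunits lie well below 1 in both clones (Eif2s1, Eif2b3, Eif3i) and others lie near or above it (Eif2s3x, Eif2b1, Eif3b).

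At the cap, the eIF4G scaffolds changed in opposite directions. Eif4g1, which joins the cap-binding protein, the helicase and eIF3, had 644, 595 and 627 CPM in Vcam1ctrl, 664, 755 and 618 CPM in Vcam1KO1 and 576, 590 and 655 CPM in Vcam1KO2, and did not pass the test (0.13 and -0.04). Eif4g3, its paralog with the same role, had 220, 172 and 215 CPM in Vcam1ctrl, 121, 135 and 157 CPM in Vcam1KO1 and 137, 134 and 107 CPM in Vcam1KO2. It fell by -0.56 (adjusted p = 0.0099) and -0.68 (adjusted p = 0.0041), with all clone libraries below all control libraries.

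Eif4g2, which lacks the site for the cap-binding protein and serves initiation that does not use it, rose instead. It had 689, 781 and 678 CPM in Vcam1ctrl, 1079, 1068 and 983 CPM in Vcam1KO1 and 1019, 980 and 870 CPM in Vcam1KO2. The change was 0.54 ± 0.12 in Vcam1KO1 (adjusted p = 0.0034) and 0.42 ± 0.12 in Vcam1KO2 (adjusted p = 0.016), the latter not without Vcam1ctrl replicate 1 or Vcam1KO2 replicate 1 or 2 (adjusted p up to 0.065). Eif4e, the cap-binding protein, had 102, 135 and 83.9 CPM in Vcam1ctrl, 81.4, 84.1 and 74.8 CPM in Vcam1KO1 and 122, 127 and 132 CPM in Vcam1KO2. Vcam1KO1 was lower than Vcam1KO2 by 0.67 on the log2 scale (adjusted p = 0.0093), whereas its fall against the control (-0.41, adjusted p = 0.045) ended under 9 of 17 alternatives, among them leaving out any Vcam1KO1 library, Vcam1ctrl replicate 1 or 2, or Vcam1KO2 replicate 2 (adjusted p up to 0.11). Eif4e2, a cap-binding protein that represses its targets, was higher in Vcam1KO2 (0.38), and Eif4e3 and Eif4enif1 did not pass the test in either clone.

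The 4E-BP genes, whose proteins block Eif4e until mTORC1 releases them, held the largest difference between the clones among factors with a mean of at least 5 CPM. Eif4ebp1 (chromosome 8, 27260329 to 27276674) had 214, 242 and 198 CPM in Vcam1ctrl, 28.5, 35.2 and 14.2 CPM in Vcam1KO1 and 140, 170 and 98.1 CPM in Vcam1KO2. The 3 groups did not overlap, and Vcam1KO1 had 0.119 times the control level. Its log2 fold change was -3.07 ± 0.33 in Vcam1KO1 (adjusted p = 4.0e-05) and -0.68 ± 0.30 in Vcam1KO2 (adjusted p = 0.089), and the clones differed by -2.39 ± 0.32 (adjusted p = 0.00051). With the clones pooled the change of -1.43 did not pass the test (adjusted p = 0.11).

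Eif4ebp2, the paralog of the same function, had 115, 104 and 110 CPM in Vcam1ctrl, 154, 152 and 152 CPM in Vcam1KO1 and 149, 148 and 144 CPM in Vcam1KO2. Its libraries were tightly grouped and all clone libraries were above the control, by 0.47 ± 0.09 (adjusted p = 0.0011) and 0.42 ± 0.09 (adjusted p = 0.0026), with 0.05 between the clones (adjusted p = 0.67). Eif4ebp3 was low, at 0.627 to 1.64 CPM in Vcam1ctrl and 0.479 to 0.958 CPM in the clones, overlaps another gene on its strand and did not pass the test.

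Of the helicases and their cofactors, Eif4b, which stimulates the helicase, changed in both clones. It had 1037, 938 and 1019 CPM in Vcam1ctrl, 589, 503 and 480 CPM in Vcam1KO1 and 648, 666 and 599 CPM in Vcam1KO2, a fall of -0.93 ± 0.12 (adjusted p = 0.00014) and -0.65 ± 0.12 (adjusted p = 0.0016). Eif4a1, the main helicase that unwinds mRNA leaders, had 1046, 1418 and 898 CPM in Vcam1ctrl, 661, 675 and 556 CPM in Vcam1KO1 and 857, 952 and 929 CPM in Vcam1KO2. It fell in Vcam1KO1 (-0.83, adjusted p = 0.0026), while Vcam1KO2 overlapped the control (-0.30, adjusted p = 0.18).

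Eif4a2, the second such helicase, had 273, 294 and 320 CPM in Vcam1ctrl, 207, 199 and 311 CPM in Vcam1KO1 and 213, 192 and 161 CPM in Vcam1KO2. It fell in Vcam1KO2 (-0.65, adjusted p = 0.016) and gave -0.31 in Vcam1KO1 (adjusted p = 0.18), where replicate 3 lay within the control range. Eif4a3, which marks exon junctions, fell in Vcam1KO1 (-0.73), and Eif4h, another cofactor, did not pass the test in either clone. Eif4a3l1, a near copy of Eif4a3, was at 0.253 to 0.997 CPM in Vcam1ctrl, at 0.0638 to 0.120 CPM in Vcam1KO1 and at most 0.0141 CPM in Vcam1KO2. Its reads may belong to Eif4a3, and it was the factor that was higher in Vcam1KO1 than in Vcam1KO2.

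Among the late factors, Eif6 and Eif5a were lower. Eif6 (chromosome 2, 155819832 to 155826925), which keeps the large subunit from joining too early and takes part in making it, had 354, 521 and 327 CPM in Vcam1ctrl, 77.7, 85.9 and 77.0 CPM in Vcam1KO1 and 226, 241 and 235 CPM in Vcam1KO2. The 3 groups did not overlap. It fell by -2.32 ± 0.18 in Vcam1KO1 (adjusted p = 4.4e-06) and -0.78 ± 0.17 in Vcam1KO2 (adjusted p = 0.0038), and the clones differed by -1.54 ± 0.17 (adjusted p = 0.00019). The pooled change of -1.35 (adjusted p = 0.032) did not pass without any single Vcam1ctrl library or Vcam1KO1 replicate 2 (adjusted p up to 0.12).

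Eif5a, which carries the modified lysine hypusine and helps the ribosome past difficult stretches, had 897, 1152 and 924 CPM in Vcam1ctrl, 530, 534 and 400 CPM in Vcam1KO1 and 650, 714 and 889 CPM in Vcam1KO2. It fell in Vcam1KO1 by -1.02 ± 0.18 (adjusted p = 0.00081) and gave -0.40 ± 0.18 in Vcam1KO2 (adjusted p = 0.083), with -0.62 between the clones (adjusted p = 0.020), a difference that was lost without Vcam1KO2 replicate 3 (adjusted p = 0.058). Eif5a2, its rarer paralog, had 7.51, 7.77 and 5.68 CPM in Vcam1ctrl, 10.9, 11.1 and 6.96 CPM in Vcam1KO1 and 7.32, 6.69 and 8.53 CPM in Vcam1KO2, and did not pass the test. Eif5b, which joins the subunits, did not pass it in either clone.

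The ratio of a pair of paralogs within a library does not depend on how libraries are scaled to each other. In that way 10 pairs were compared between the 6 clone libraries and the 3 control libraries. The comparison treated the 6 clone libraries as interchangeable, although they came from both clones, which differed in some ratios. In 5 pairs the clone and control libraries did not overlap, which gives the smallest p that the exact two-sided permutation test can reach here, 0.024, or 0.048 adjusted over the 10 pairs. Such separation was common: of all tested genes taken singly, 23.0% had all clone libraries below all control libraries and 21.2% had them above. Each of the 5 pairs also holds a gene that was itself separated in this way: Eif4ebp1, Eif1, Eif5a and Eif4g3 below, Eif4ebp2 and Eif4g2 above. The factors were chosen with earlier results of these data known. The p-values of these ratios thus largely restate the single genes and are not separate support. The log2 ratio of Eif4ebp1 to Eif4ebp2 was 0.99 ± 0.20 (SD, n = 3) in Vcam1ctrl, -2.65 ± 0.68 in Vcam1KO1 and -0.15 ± 0.38 in Vcam1KO2. In the control the counts of Eif4ebp1 exceeded those of Eif4ebp2, and in Vcam1KO1 the reverse held in every library. In Vcam1KO2 the reverse held in replicates 1 and 3 but not in replicate 2 (log2 ratios of -0.09, -0.56 and 0.20). Their longest transcripts have 1997 and 5784 bases, so the larger count need not mark the more abundant mRNA. The log2 ratio of Eif1b to Eif1 rose by 1.40 with the clones pooled, that of Eif5a2 to Eif5a by 1.0 and that of Eif4g2 to Eif4g1 by 0.44, while that of Eif4g3 to Eif4g1 dropped by 0.66.

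In these rising ratios the lower gene of the pair, Eif1b or Eif5a2, did not itself pass the test in either clone. The ratio of Eif1ax to Eif1a was higher by 0.85 (exact p = 0.048, adjusted 0.079), with 5 of 6 clone libraries above the control. The ratios Eif4e2/Eif4e, Eif3j2/Eif3j1, Eif4a2/Eif4a1 and Eif4e3/Eif4e changed by 0.30, -0.45, 0.04 and 0.03 (exact p of 0.17, 0.24, 1 and 0.90), and each overlapped between clones and control.

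**Figure D4:**
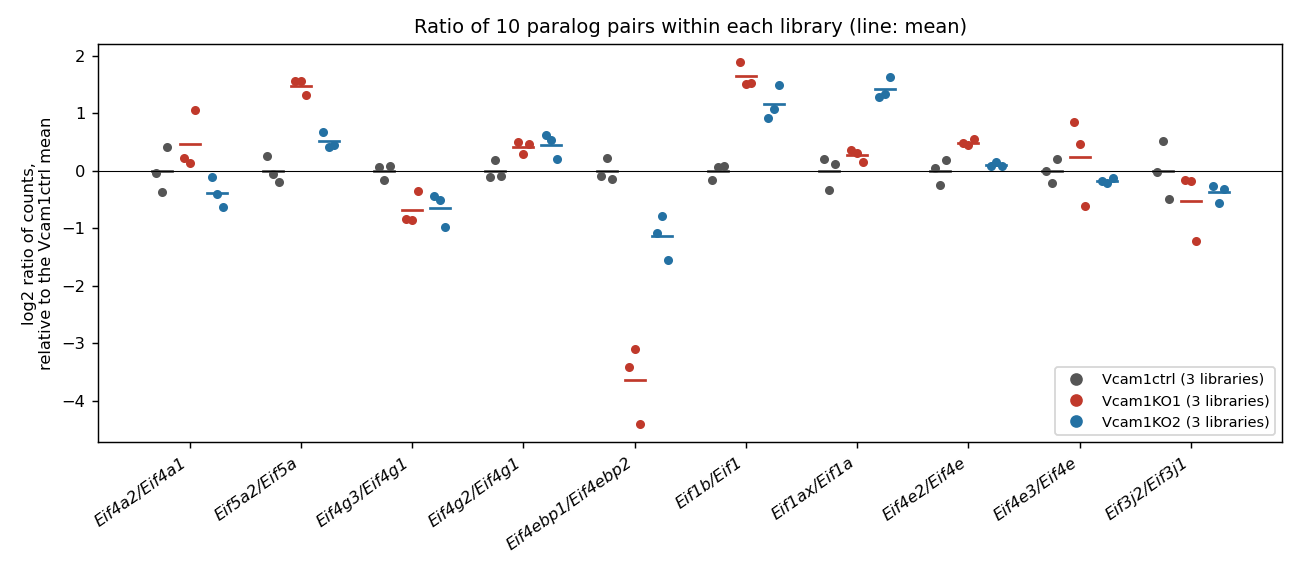
Log2 ratio of the counts of 10 paralog pairs within each library, relative to the Vcam1ctrl mean, with 3 points per group and the group mean as a line. Eif4ebp1/Eif4ebp2 falls in both clones and further in Vcam1KO1, Eif1b/Eif1 and Eif5a2/Eif5a lie above the control in all 6 clone libraries, and Eif4a2/Eif4a1 and Eif4e3/Eif4e overlap with it.

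The counts for the pathway lists that follow are to be read beside 30.0% lower and 29.9% higher among all tested genes in Vcam1KO1, and 26.1% lower and 25.3% higher in Vcam1KO2. The kinases that switch off eIF2 were mostly higher. Of the 4, Eif2ak1, Eif2ak2 and Eif2ak4 were higher in each clone, and Eif2ak3 was lower in Vcam1KO2. Eif2ak4, which senses uncharged tRNA, had 19.9, 18.7 and 20.5 CPM in Vcam1ctrl, 98.0, 111 and 114 CPM in Vcam1KO1 and 58.7, 61.0 and 57.7 CPM in Vcam1KO2. The groups were far apart, with log2 fold changes of 2.45 (adjusted p = 1.2e-07) and 1.59 (adjusted p = 1.6e-06). Eif2ak2, which senses double-stranded RNA, rose by 1.64 and 1.24. Without Vcam1ctrl replicate 2 or Vcam1KO2 replicate 3, only 2 of the kinases were higher in Vcam1KO2.

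The 12 listed genes of the integrated stress response, which follows when eIF2 is switched off, were lower in 9 cases in Vcam1KO1 and in 6 in Vcam1KO2, with medians of -2.00 and -1.09. Atf4, the transcription factor of this response, had 868, 1350 and 901 CPM in Vcam1ctrl, 244, 298 and 385 CPM in Vcam1KO1 and 534, 643 and 366 CPM in Vcam1KO2, and fell by -1.75 (adjusted p = 0.00036) and -1.02 (adjusted p = 0.0091). Its targets Trib3 and Slc7a11 fell further in Vcam1KO1, to between 4.01 and 6.27 CPM and between 0.511 and 1.68 CPM, from at least 318 and at least 106 CPM in the control. Ddit3, Atf3 and Ppp1r15a did not pass the test in either clone and varied widely between libraries of the same group, with Atf3 at 75.0 to 499.8 CPM in Vcam1ctrl. Eif4ebp1 is itself known as a target of Atf4, and like Trib3 and Slc7a11 it was lower in Vcam1KO1 than in Vcam1KO2. Of the 12 listed genes, 8 were lower in that comparison and 4 were not called, beside 18.5% lower among all tested genes. A link between Atf4 and Eif4ebp1 in these cells was not tested.

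**Figure D5:**
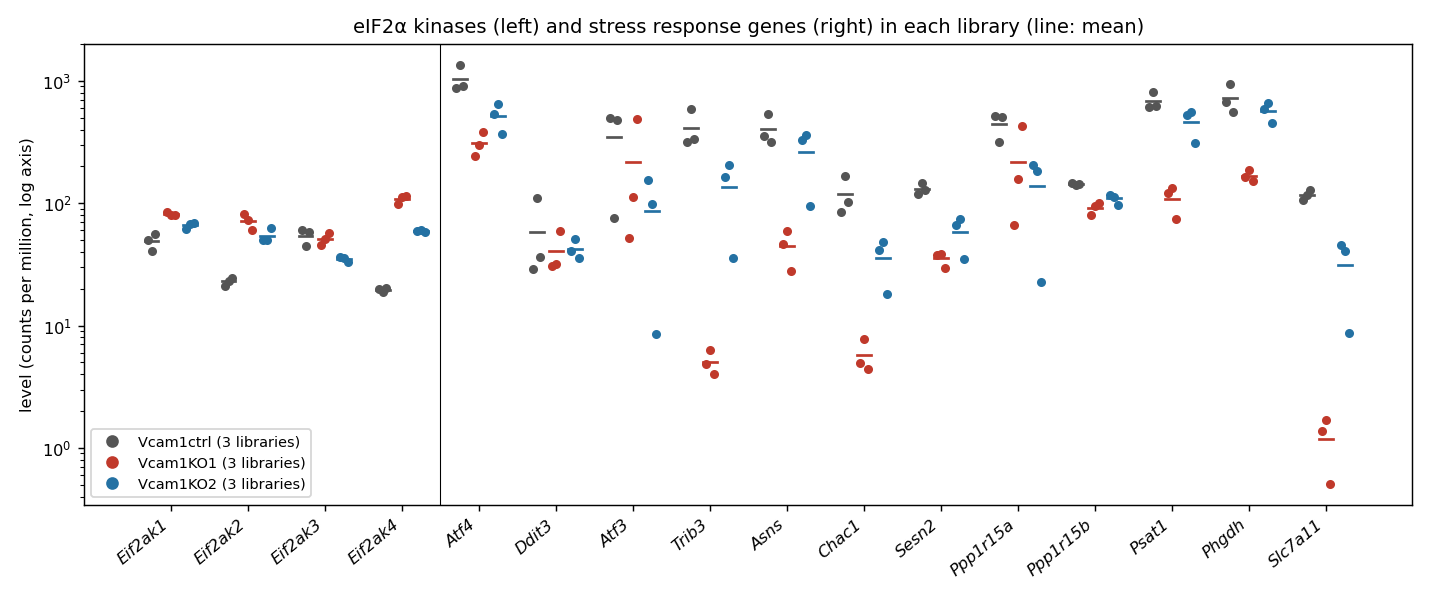
Levels of the 4 eIF2α kinases (left of the line) and 12 stress response genes (right) in each library, in CPM on a log axis, with 3 points per group and the group mean as a line. Eif2ak4 and Eif2ak2 lie above the control in all 6 clone libraries, and Atf4, Chac1, Sesn2 and Slc7a11 below it, with Trib3 and Slc7a11 under 10 CPM in Vcam1KO1.

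The 20 cytosolic tRNA synthetases, which charge the tRNAs that eEF1A delivers, were lower in 16 cases and higher in 1 in Vcam1KO1, with a median of -1.23. In Vcam1KO2 5 were lower and 1 higher, with a median of -0.26, a share of lower genes close to the 26.1% of all tested genes. In the direct comparison Vcam1KO1 was lower than Vcam1KO2 in 17, beside 18.5% lower among all tested genes. Wars was lower in both clones (-2.49 and -1.50) and Dars was the gene that was higher (0.29 and 0.61). Among 6 other mRNAs known to carry the pyrimidine start, 5 were lower in Vcam1KO1 and 4 in Vcam1KO2. Rack1, a ribosomal scaffold, fell by -1.64 and -1.03, and the ribosome-associated Npm1 by -1.61 and -0.92.

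The 15 genes of the mTORC1 axis were mixed, with 7 higher and 5 lower in Vcam1KO1 and 2 higher and 6 lower in Vcam1KO2. Its share of lower genes in Vcam1KO1 was close to the 30.0% of all tested genes, while its share of higher genes there was above the 29.9%. In Vcam1KO2 its share of lower genes was above the 26.1% of all tested genes and its share of higher genes below the 25.3%. Deptor, an inhibitor of mTOR, fell by -3.32 and -1.94, Rps6, a ribosomal protein that the pathway phosphorylates, by -2.00 and -1.30, and Mknk1, a kinase of Eif4e, by -0.99 and -1.99. Pdcd4, which inhibits the eIF4A helicase, was higher in Vcam1KO1 (2.38) and gave 0.42 in Vcam1KO2 (adjusted p = 0.24). Of the 6 poly(A)-binding genes, Pabpc1 was lower in both clones (-1.29 and -0.61) and Paip1 higher (0.56 and 1.08), while Pabpc4 was lower in both (-0.49 and -1.82) and Paip2b in Vcam1KO2.

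Of 5 tested genes of termination and recycling, Etf1, the release factor, was lower in both clones (-0.81 and -0.45), Abce1 was lower in Vcam1KO1 and Mcts1 higher in Vcam1KO2. Dhps and Dohh, which make hypusine on eIF5A, were lower in Vcam1KO1 (-0.44 and -0.56) and did not pass the test in Vcam1KO2. Among the scanning helicases and the proteins that release eIF6, Dhx29 was higher in both clones (0.90 and 1.12), Sbds lower in both (-0.81 and -0.49), Efl1 lower in Vcam1KO1 and Ddx3x did not pass the test. The 9 mitochondrial factors were mostly not called, with Gfm1 higher and Tufm lower in both clones and, in Vcam1KO2, Mtrf1l also higher and Mtif2 lower, and of the 2 selenocysteine factors Secisbp2 was lower in both.

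The 5 factors that were too low to test were Eef1a2, Eif2s3y, Eif4e1b, Eif4a3l2 and Eif2c5, the last of which matches the symbol rule but is annotated as a long intergenic non-coding RNA. Eef1a2, the muscle and nerve form of eEF1A, was at 0.0126 to 0.0637 CPM in Vcam1ctrl and at 0 CPM in all clone libraries. At these depths 3 counts correspond to 0.0239 to 0.0554 CPM, so Eef1a2 was at or near the limit of detection everywhere. Counts of Eef1d, Eif4e3, Eef1akmt2, Eef1akmt4 and Eif4ebp3 are uncertain because another protein-coding gene overlaps them on the same strand, and those of Eef1a1, Eif1 and Eif3e because processed copies elsewhere in the genome may share reads.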

How the data were processed

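The authors prepared stranded mRNA libraries (paired-end, 100 cycles) from Vcam1ctrl, Vcam1KO1 and Vcam1KO2 PPTR cells and quantified them with kallisto 0.46.1 against GENCODE transcripts of the mouse build GRCm38. The deposited table gives estimated counts per gene symbol, all of them whole numbers, with no normalization. Libraries were assigned to groups by their titles. Here, counts were scaled with TMM factors, filtered with filterByExpr and tested with edgeR 4.0.16 in R 4.3.3 (quasi-likelihood test, Benjamini-Hochberg adjustment over all 17672 genes tested, threshold 0.05): the 6 clone libraries against the 3 control libraries in a fit with 2 groups, and each clone against the control and against the other in a fit with 3 groups. The study itself used voom, which was run as an alternative with limma 3.58.1, as was DESeq2 1.42.0. Other alternatives changed the scaling, the filter, the libraries in the fit, or left out each library. CPM carry the TMM factors. Log2 ratios of paralog counts (0.5 added) were compared by an exact permutation test with 84 possible assignments. Level per kilobase used the longest protein-coding transcript in GENCODE vM21 of GRCm38, which also gave the positions, since vM24, used by the authors, was not used here. With 3 libraries per group the spread between libraries, not the counting error, set the precision.

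The factors and gene lists were chosen with earlier results of these data known. Values in every library are given for the 10 factors with the largest change among those called and not overlapping in the pooled comparison, the 5 with the largest called difference between the clones (in each case at a level averaging 5 CPM or more) and a fixed list of well-known factors. Other factors are given by role, by their counts and examples. The edgeR step recovered known changes on simulated counts. Those changes were in few genes and alike in both clones. The check therefore does not cover many changes or clone differences such as those seen here.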

Additional observations from a re-analysis of the deposited data

Results flagged for a closer look

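In 2 of the 33 factors whose values were checked, the gap from the most extreme clone library to the next, as a share of the range of all 6, was above Dixon's critical value. Chance alone marks about 1 in 20 such groups when all values come from a single population. These libraries came from both clones, which differed in many of the factors, so that rate need not hold here. Both cases were replicate 3 of Vcam1KO1. Eif2s3x had 223 CPM there and 283 to 305 CPM in the other 5 clone libraries (gap over range 0.729), and Eif4a2 had 311 CPM there and 161 to 213 CPM in the others (0.658).

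The change against the control differed between the clones, by the direct test of Vcam1KO1 against Vcam1KO2 (edgeR's quasi-likelihood test, adjusted p under 0.05), in 13 of the 33 factors given in full, beside 18.5% of all tested genes lower and 20.2% higher in that comparison. The share of factors called in either direction is thus close to that of all genes, and 5 of the 33 were chosen for a called difference between the clones. The differences, Vcam1KO1 minus Vcam1KO2 on the log2 scale, were -2.39 for Eif4ebp1, -1.54 for Eif6, -1.39 for Eif2s2, -1.37 for Eef1e1 and -1.09 for Eif1ax. They were -0.92 for Eif3c, -0.82 for Eif1, -0.75 for Eef1d, -0.67 for Eif4e and -0.62 for Eif5a. They were -0.55 for Eef1g, -0.53 for Eif4a1 and -0.53 for Eif3e. All 13 were lower in Vcam1KO1. The calls of Eef1g, Eif3e, Eif4a1 and Eif5a were lost under at least 1 alternative.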

How the results depend on the processing

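Over 17 alternatives, no factor given in full reversed its direction once called, and the call held in all 17 for 11 of 19 factors in the pooled comparison, 26 of 27 in Vcam1KO1, 13 of 20 in Vcam1KO2 and 9 of 13 between the clones. The count of factors higher in the pooled comparison went from 4 to 2 with no filter on low counts and to 8 as the mean of both clone contrasts. The count higher in Vcam1KO2 went from 9 to 5 with upper-quartile factors and to 4 with no filter, and the single factor higher in Vcam1KO1 than in Vcam1KO2, Eif4a3l1, was lost with a filter at a mean of 1 CPM and with only the 6 libraries compared (0 left; in edgeR). Leaving out single libraries gave 17 to 35 factors called, 16 to 30 lower and 1 to 5 higher in the pooled comparison, 3 to 11 higher in Vcam1KO2, and 17 to 33 lower and 0 to 2 higher between the clones. The median in Vcam1KO1 then lay between -0.69 and -0.57.

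Leaving out single libraries also moved the changes of paralog ratios, to between -0.16 and 0.25 for Eif4a2/Eif4a1 and between -0.13 and 0.16 for Eif4e3/Eif4e, which reversed. The changes lay between 0.88 and 1.12 for Eif5a2/Eif5a, between -0.74 and -0.60 for Eif4g3/Eif4g1, between 0.39 and 0.53 for Eif4g2/Eif4g1, between -2.71 and -1.98 for Eif4ebp1/Eif4ebp2 and between 1.30 and 1.5 for Eif1b/Eif1. With 8 libraries none of these passed after adjustment, the fewer libraries raising the smallest p that can be reached. Counts of the role groups and pathway lists without the libraries that stood apart were chosen after seeing the data. No paired analysis was possible because the labels give the groups no shared replicate numbers and the passage of each library is not given in the sources used here. The 5 factors below the filter had too few counts for a test, which does not show that they are absent.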
